A study of Mus musculus with 7 samples.

Results

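The genes described here are 10 that code for parts of the insulin, AKT and mTOR signalling pathway: Insr, Igf1r, Irs1, Pik3r1, Akt1, Akt2, Tsc1, Tsc2, Mtor and Eif4ebp1. They were taken by name, with every probe set that the array's annotation assigns to one of these symbols and to no other. All 10 were on the array, with 20 probe sets, out of 12393 genes and 22626 probe sets in all. RNA of whole hearts had been measured on Affymetrix 3' expression arrays, 3 from KLF15-null mice, which lack a functional gene for Krüppel-like factor 15, and 4 from wild-type mice (WT). KLF15 is a transcription factor with zinc fingers, abundant in muscle and liver, that controls genes of amino acid and lipid metabolism. Mice of both groups were labelled as male, of strain C57/BL6, 3 to 4 months old and fasted for 18 h. The labels do not say which part of Klf15 is missing or whether litters were shared, and there were no fed hearts, so a dependence on fasting was not tested.

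When insulin or IGF-1 binds its receptor, IRS adaptor proteins recruit PI3-kinase, a regulatory and a catalytic subunit together, which makes the membrane lipid that brings AKT kinases to the membrane. AKT phosphorylates the TSC complex, a brake on the small GTPase Rheb, and freed Rheb switches on mTOR complex 1, which promotes protein synthesis and holds back autophagy. In heart muscle this pathway sets glucose uptake and cell size, and its activity is low in fasting. The arrays measured RNA, and the pathway's activity, which rests on phosphorylation, was not measured.

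Values are log2 signals, so a difference of 1 is a factor of 2. Differences are KLF15-null minus WT throughout. A probe set was tested if its mean over the 7 arrays reached the 40th percentile of all probe sets, a log2 signal of 5.74, and called if limma's p, adjusted over all tested probe sets, was under 0.05. Of all 13576 tested probe sets 26.8% were called higher and 23.8% lower, 50.6% in all, 3637 and 3235 by number. Once arrays had been brought to a common median, 4473 were higher and 2593 lower. The KLF15-null arrays had lower medians than the WT arrays (6.22 to 6.23 against 6.31 to 6.33). Their 98th percentiles were higher (11.86 to 12.02 against 11.43 to 11.74). Contrasts between bright and dim probe sets may therefore depend on the scaling, and other scalings are given below. Klf15 itself had log2 signals of 6.52, 6.23 and 6.23 on the KLF15-null arrays and 8.68, 8.98, 8.73 and 9.08 on the WT arrays, a difference of -2.54 (SE 0.13, adjusted p = 1.26e-06, exact two-sided permutation p = 0.0286). That is the smallest p that 35 splits allow, and since the deleted part is not known, its single probe set may or may not check the labels. Markers of heart muscle cells were at the top of the signal range, with summed linear signals of 88386 to 93444 on the KLF15-null arrays and 82430 to 93060 on the WT arrays. Limma called 0 of the 6, and 2 had an unadjusted p under 0.05.

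Of the 16 member probe sets above the filter, 8 fell in KLF15-null hearts, 3 rose and 5 missed the threshold. The lower ones belonged to Igf1r, Irs1, Pik3r1, Akt1, Akt2 and Tsc2, all between receptor and TSC complex, and the higher ones to Mtor and Eif4ebp1 at the lower end of the pathway. This order is not a clean split, since Akt1, Akt2, Mtor and Eif4ebp1 each also had a tested probe set that was not called. Tsc1 was not called either. The 8 lower probe sets make 50% of those tested, beside 23.8% of all probe sets, and the 3 higher ones 18.75%, beside 26.8%. The median difference was -0.42 over the 16 member probe sets and 0.0020 over all tested. The same 11 probe sets were the ones whose KLF15-null and WT values did not overlap, as was the case for 53.0% of all tested probe sets, 25.4% with KLF15-null below and 27.6% with it above. The filter uses the mean of both groups, so that a probe set bright in 1 group alone can pass through that group, and these counts describe the probe sets that passed, not all 20. Of the 9 members tested, each on its brightest tested probe set, 4 were called lower, 2 were called higher and 3 were not called. Among all 8404 genes tested, 19.6% were called lower and 27.4% higher, so that 46.9% were called in either direction.

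**Figure D1:**
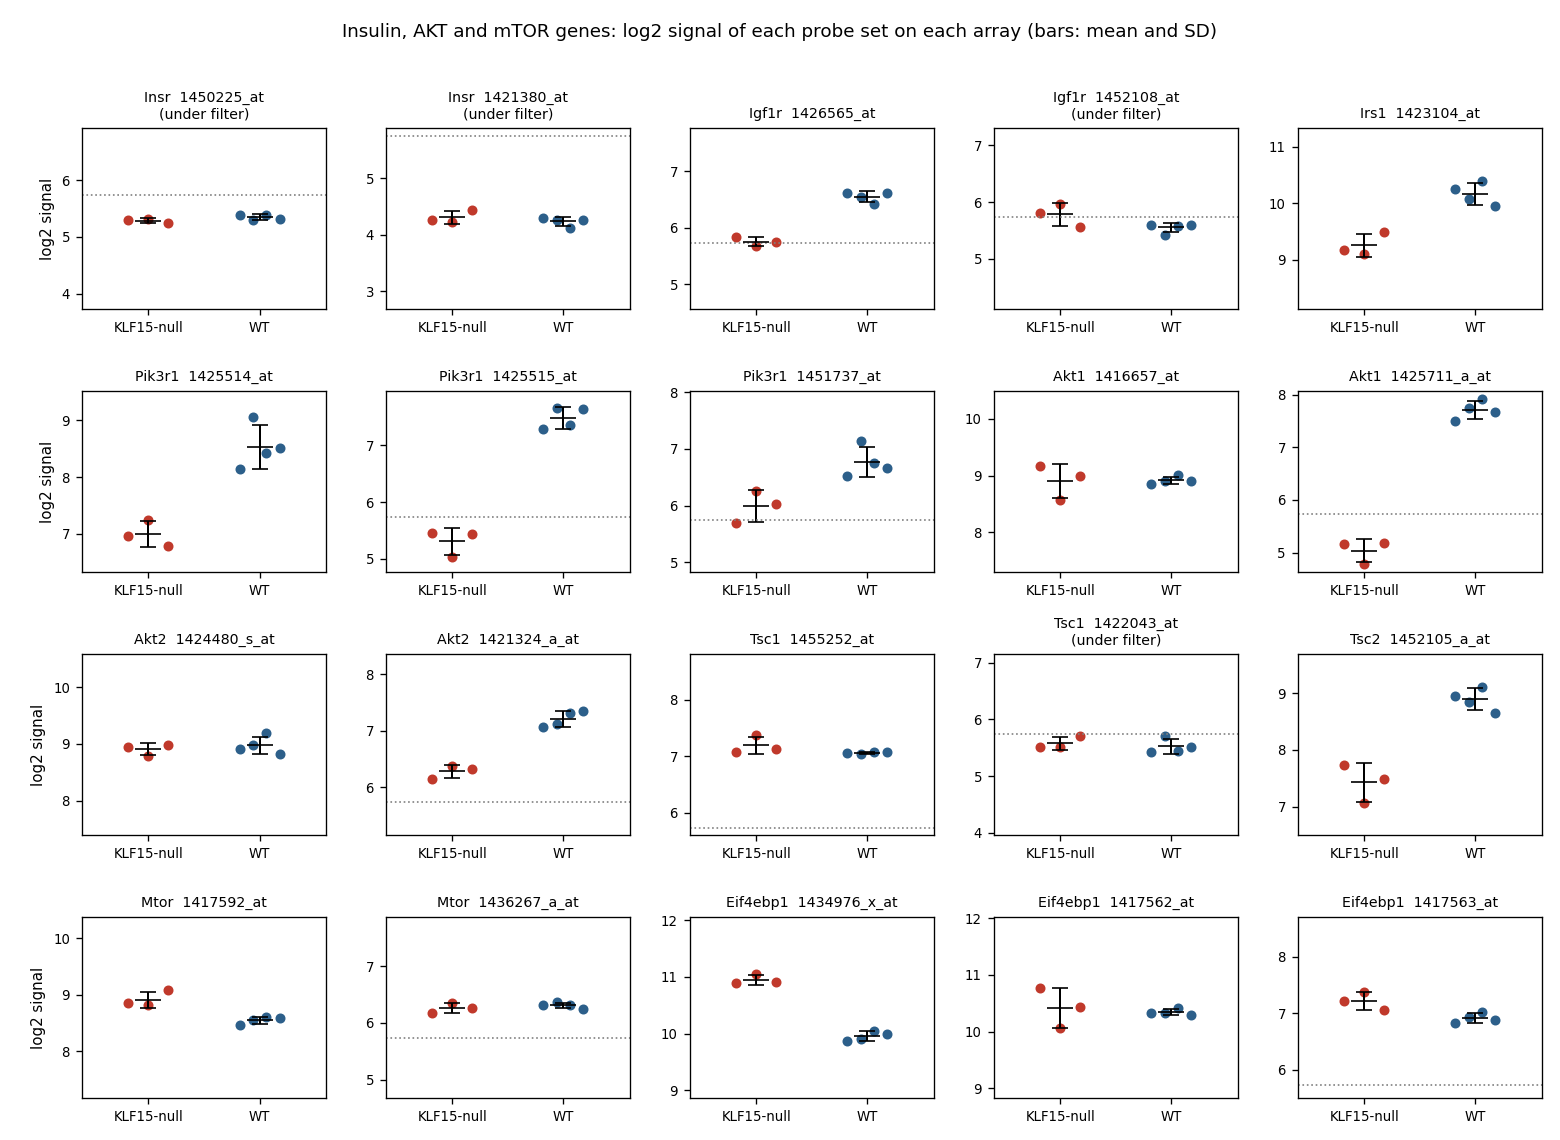
Log2 signal (vertical axis, a separate range in each panel) of the 20 member probe sets on the 3 KLF15-null arrays (red) and the 4 WT arrays (blue), with the mean and SD as black bars and the filter level of 5.74 as a dotted line where it falls in the range. The KLF15-null points lie wholly below the WT points in 8 panels and wholly above them in 3.

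Igf1r, Irs1, Pik3r1 and Tsc2 were lower on every probe set of theirs that was tested, and the windows around their annotated transcription starts are therefore shown first. Each runs from 250 bases before to 50 bases after a start in RefSeq (build GRCm38.p6), 5′ to 3′ on the gene's strand. Capitals mark CACCC, the short box to which Krüppel-like factors are known to bind, or GGGTG, the same box on the other strand. The windows are chr7:67952007-67952306 on the plus strand for Igf1r, chr1:82291390-82291689 on the minus strand for Irs1, chr13:101768168-101768467 on the minus strand for the upstream of 2 starts of Pik3r1, and chr17:24632578-24632877 on the minus strand for Tsc2.
Igf1r: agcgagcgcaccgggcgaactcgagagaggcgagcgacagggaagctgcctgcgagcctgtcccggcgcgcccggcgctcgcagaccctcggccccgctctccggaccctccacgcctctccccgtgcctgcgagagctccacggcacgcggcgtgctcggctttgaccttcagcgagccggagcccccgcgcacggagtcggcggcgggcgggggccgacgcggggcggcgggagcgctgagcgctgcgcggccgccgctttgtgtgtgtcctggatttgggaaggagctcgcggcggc
Irs1: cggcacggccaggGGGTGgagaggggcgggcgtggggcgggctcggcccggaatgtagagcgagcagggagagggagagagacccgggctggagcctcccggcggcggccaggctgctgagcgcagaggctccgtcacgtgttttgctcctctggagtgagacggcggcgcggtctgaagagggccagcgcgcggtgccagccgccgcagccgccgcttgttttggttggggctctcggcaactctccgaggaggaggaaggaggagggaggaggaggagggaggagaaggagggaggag
Pik3r1: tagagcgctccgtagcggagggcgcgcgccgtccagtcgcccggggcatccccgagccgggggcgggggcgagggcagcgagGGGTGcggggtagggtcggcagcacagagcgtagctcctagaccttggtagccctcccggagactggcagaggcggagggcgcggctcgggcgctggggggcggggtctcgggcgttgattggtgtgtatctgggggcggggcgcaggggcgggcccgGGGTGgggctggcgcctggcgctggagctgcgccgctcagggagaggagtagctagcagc
Tsc2: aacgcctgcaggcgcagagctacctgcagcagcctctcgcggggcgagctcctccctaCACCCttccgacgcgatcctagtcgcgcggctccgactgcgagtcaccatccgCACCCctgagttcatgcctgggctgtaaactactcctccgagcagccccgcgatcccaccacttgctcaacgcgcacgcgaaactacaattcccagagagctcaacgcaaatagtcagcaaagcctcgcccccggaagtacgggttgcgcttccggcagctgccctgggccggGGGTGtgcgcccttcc
The Tsc2 window held 3 matches, starting 192 and 139 bases before and at base 35 after the start, that of Pik3r1 held 2, 168 and 10 bases before it, and that of Irs1 held 1, 237 bases before it. None was found in the Igf1r window or in the downstream one of Pik3r1. Among all 32851 windows of that length 57.5% held at least 1 match, 25.7% at least 2 and 9.35% at least 3. There were 13 windows for 8 of the members, of which 9 held a match, those of Akt1 (2 matches in 1 of 2 windows), Akt2 (1 in each of 4) and Mtor (1) among them, while the window of Tsc1 had none. A match describes these letters and says nothing of whether the factor binds there.

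At the receptors, the insulin receptor could not be assessed and the IGF-1 receptor was lower on 1 probe set. Insr codes for the insulin receptor, and both its probe sets lay under the filter level on all 7 arrays: 1450225_at had means of 5.29 in KLF15-null and 5.35 in WT hearts, and 1421380_at of 4.31 in KLF15-null and 4.24 in WT hearts. Igf1r codes for the related IGF-1 receptor tyrosine kinase. Its probe set 1426565_at had signals of 5.85, 5.68 and 5.74 on the KLF15-null arrays, and of 6.61, 6.55, 6.42 and 6.62 on the WT arrays. All KLF15-null values were below all WT values, by 0.79 on average (SE 0.08, adjusted p = 5.08e-05, 1.73-fold lower). The second probe set, 1452108_at, was under the filter and stood at 5.80, 5.97 and 5.57 on the KLF15-null arrays, against 5.60, 5.42, 5.58 and 5.60 on the WT arrays, with overlapping groups and no test. The KLF15-null mean of 1426565_at, 5.76, was itself close to the filter level, and the table has no detection calls to show how much of it is background.

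Irs1, the adaptor that links both receptors to PI3-kinase, has a single probe set, at the 92.7th percentile of brightness. It read 9.17, 9.11 and 9.49 on the KLF15-null arrays and 10.25, 10.07, 10.40 and 9.95 on the WT arrays. The groups did not overlap, and Irs1 was 1.88-fold lower in KLF15-null hearts (difference -0.91, SE 0.14, adjusted p = 0.000578).

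Pik3r1 codes for the p85α, p55α and p50α regulatory subunits of PI3-kinase, which hold and stabilise the catalytic subunit and dock it on IRS proteins. All 3 of its probe sets, which the annotation ties to the same transcript record, were lower. On the brightest, 1425514_at, the KLF15-null arrays had 6.96, 7.24 and 6.79 and the WT arrays 8.14, 9.07, 8.43 and 8.51, a 2.91-fold lower signal (difference -1.54, SE 0.20, adjusted p = 0.000188). WT array 2 stood highest on all 3 probe sets and the groups were apart on each. With 1425515_at the values were 5.45, 5.04 and 5.44 in KLF15-null hearts against 7.28, 7.67, 7.37 and 7.64 in WT hearts (difference -2.18, SE 0.14, adjusted p = 3.01e-06). With 1451737_at they were 5.70, 6.25 and 6.03 in KLF15-null against 6.53, 7.14, 6.75 and 6.66 in WT hearts (difference -0.78, SE 0.17, adjusted p = 0.00336). The size of the fall differed between the last probe set and each of the others by 0.76 and 1.40 on the log2 scale (exact two-sided permutation p = 0.0286 each over the 35 splits of the arrays, adjusted p = 0.0367 over the 9 pairs of tested probe sets of a member), while 1425514_at and 1425515_at differed by 0.64 (exact permutation p = 0.0857, adjusted p = 0.0964). The KLF15-null values of 1425515_at all lay below the filter level, where background may limit how far a signal can fall. This probe set passed the filter through its WT signal, so no conclusion is drawn from the p of its pairs.

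Both AKT kinase genes were lower on their dimmer probe set and not called on their brighter one. Akt1 codes for the most widely expressed AKT kinase, tied to growth and survival. Its probe set 1425711_a_at had 5.15, 4.78 and 5.18 on the KLF15-null arrays and 7.51, 7.74, 7.91 and 7.67 on the WT arrays (difference -2.67, SE 0.13, adjusted p = 9.20e-07). All 3 KLF15-null values lay below the filter level of 5.74, so the probe set passed the filter through its WT signal. Since the KLF15-null signal was not shown to be above background, no fold is given for it. The brighter 1416657_at had 9.16, 8.57 and 8.99 on the KLF15-null arrays and 8.85, 8.90, 9.01 and 8.90 on the WT arrays. There the groups overlapped, KLF15-null array 2 being lowest and KLF15-null array 1 highest of the 7, and the difference was -0.0079 with a 95% interval from -0.33 to 0.31 (adjusted p = 0.968). The differences of the 2 probe sets of Akt1 were 2.66 apart on the log2 scale (exact two-sided permutation p = 0.0286, adjusted p = 0.0367). This pair was tested only because 1425711_a_at passed the filter through its WT signal, so no conclusion is drawn from that p. The suffix _a_at marks a probe set that matches several transcripts of 1 gene, and the files do not give the position of the probes.

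Akt2 codes for the AKT kinase most closely tied to insulin-driven glucose uptake. On 1421324_a_at the KLF15-null arrays read 6.15, 6.38 and 6.32 and the WT arrays 7.06, 7.12, 7.31 and 7.35, with no overlap (difference -0.92, SE 0.10, adjusted p = 6.90e-05, 1.90-fold lower). On the brighter 1424480_s_at they read 8.95, 8.78 and 8.98 in KLF15-null hearts and 8.91, 8.98, 9.19 and 8.82 in WT hearts. These overlapped, with a difference of -0.07 and a 95% interval from -0.33 to 0.20 (adjusted p = 0.652). Between the probe sets the differences were 0.86 apart (exact permutation p = 0.0286, adjusted p = 0.0367). Of the 1022 tested probe sets with the suffix _s_at 37.3% were called higher and 17.9% lower. For the plain suffix _at these shares were 20.5% and 25.0%.

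The TSC complex joins hamartin, from Tsc1, which stabilises the complex, and tuberin, from Tsc2, which carries the domain that inactivates Rheb and is the part AKT phosphorylates. Tsc2 was lower and Tsc1 was not called. The single probe set of Tsc2 had 7.74, 7.06 and 7.48 on the KLF15-null arrays, against 8.96, 8.84, 9.12 and 8.65 on the WT arrays. Every KLF15-null value was below the WT range, 2.76-fold on average (difference -1.47, SE 0.17, adjusted p = 8.45e-05). For Tsc1 the tested probe set 1455252_at had 7.08, 7.37 and 7.12 in KLF15-null hearts and 7.06, 7.04, 7.08 and 7.07 in WT hearts. KLF15-null array 2 was the highest, the groups touched at 7.08, and the difference was 0.13 with a 95% interval from -0.08 to 0.34 (adjusted p = 0.277). The other probe set of Tsc1, 1422043_at, lay under the filter, with means of 5.58 in KLF15-null and 5.52 in WT hearts.

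Mtor codes for the kinase that is the catalytic core of both mTOR complexes. The brighter probe set, 1417592_at, read 8.85, 8.81 and 9.07 on the KLF15-null arrays and 8.47, 8.55, 8.60 and 8.60 on the WT arrays, a 1.28-fold higher signal without overlap (difference 0.36, SE 0.10, adjusted p = 0.0171). The call was lost without WT array 1 (adjusted p = 0.0550) and without KLF15-null array 3 (adjusted p = 0.0648), with the difference still above 0 at 0.33 and 0.28. The dimmer 1436267_a_at had 6.18, 6.35 and 6.26 in KLF15-null hearts against 6.31, 6.36, 6.31 and 6.25 in WT hearts, overlapping, with a difference of -0.05 and a 95% interval from -0.22 to 0.13. Their differences were 0.41 apart (exact permutation p = 0.0286, adjusted p = 0.0367). After quantile normalization 1417592_at stood at 0.29 and 1436267_a_at at 0.046, and the gap was not tested on that scaling.

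Eif4ebp1 codes for 4E-BP1, which blocks the cap-binding factor eIF4E until mTOR complex 1 phosphorylates it, and all 3 of its probe sets were tested. On 1434976_x_at the KLF15-null arrays had 10.89, 11.05 and 10.92 and the WT arrays 9.86, 9.91, 10.05 and 10.0005, a 2.0-fold higher signal with the groups well apart (difference 0.998, SE 0.10, adjusted p = 4.76e-05). The suffix _x_at marks a probe set with probes that may also bind other transcripts, and of the 1074 tested probe sets with that suffix 60.5% were called higher and 7.91% lower, against 20.5% and 25.0% of the 8772 with the plain suffix _at. On the plain probe set 1417562_at, as bright as the first, the KLF15-null arrays had 10.77, 10.07 and 10.43, and the WT arrays 10.33, 10.33, 10.42 and 10.29. The KLF15-null values lay on both sides of the WT values, and the difference of 0.08 had a 95% interval from -0.27 to 0.43 (adjusted p = 0.690). The third, 1417563_at, had 7.23, 7.37 and 7.06 in KLF15-null and 6.83, 6.94, 7.02 and 6.88 in WT hearts. It was called higher (difference 0.30, SE 0.10, adjusted p = 0.0274), with a gap of only 7.06 to 7.02 between the nearest values. This call was lost without KLF15-null array 1 or 2 or WT array 1, 2 or 4, with adjusted p from 0.0541 to 0.0777. The rise on 1434976_x_at exceeded that on the 2 plain probe sets by 0.92 and 0.70 (exact permutation p = 0.0286 each, adjusted p = 0.0367), and those 2 were 0.22 apart (exact permutation p = 0.429, adjusted p = 0.429). A 2-fold rise of Eif4ebp1 thus rests on the _x_at probe set and on the deposited scaling: that probe set stood at 0.66 after quantile normalization (adjusted p = 0.000263) and at 0.75 after cyclic loess normalization (adjusted p = 0.000358), and was called higher in both. After quantile normalization 1417562_at stood at -0.23 and 1417563_at at 0.38, and the pairs of probe sets were compared on the deposited scaling alone. With array weights the rise on 1417563_at was 0.19, still called. The weights of KLF15-null arrays 1, 2 and 3 were 0.435, 0.224 and 3.04, so that value rests mostly on KLF15-null array 3.

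**Figure D2:**
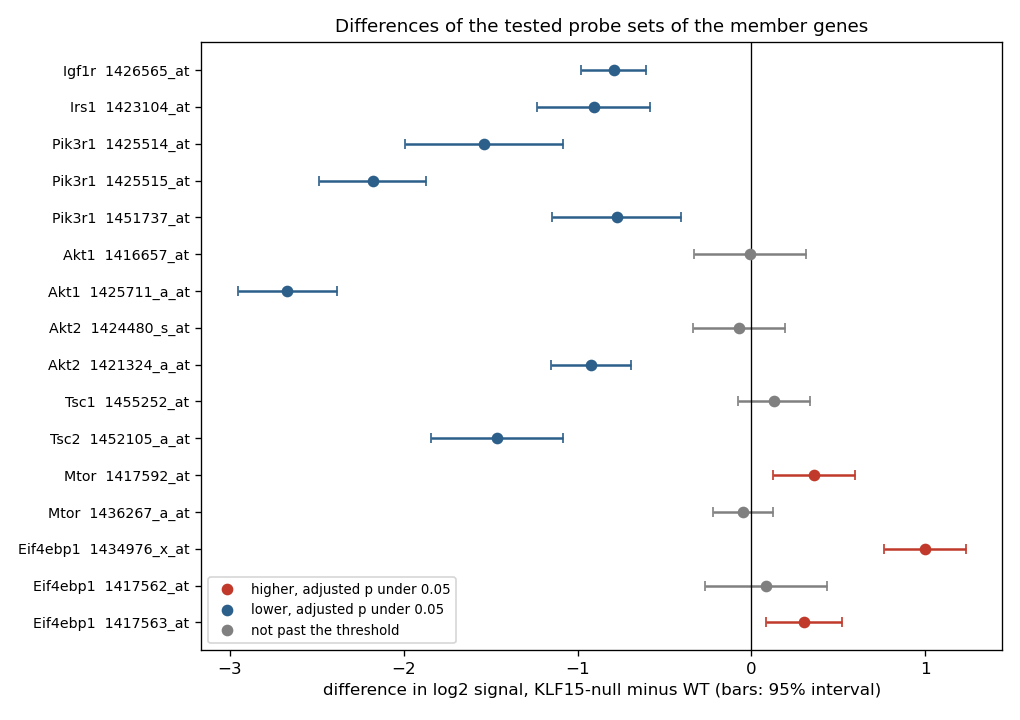
Difference in log2 signal between KLF15-null and WT hearts (horizontal axis) for the 16 tested member probe sets, in pathway order from the receptor down, with 95% intervals from limma as bars. Probe sets called lower (blue) run from Igf1r to Tsc2, those called higher (red) are of Mtor and Eif4ebp1, and Akt1 and Akt2 each have 1 grey and 1 blue point. Mtor and Eif4ebp1 each have 1 grey point as well, and the point of Tsc1 is grey.

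Of the 5 members with 2 or more tested probe sets, Pik3r1 alone had all of them called alike, and none of the 5 had one called higher and one lower. Unlike calls were common on the array: 70.3% of the 2748 genes with 2 or more tested probe sets had them, and 21.0% had a higher and a lower one. In 7 of the 9 pairs of member probe sets the differences themselves differed at an adjusted p under 0.05 by the exact permutation test. Each of these 7 had the smallest p that 35 splits allow, 0.0286, and pairs of 1 gene share probe sets. The share among all such pairs on the array was not computed, so the count cannot be read as a trait of the members. Values also spread more within the KLF15-null group, whose SD exceeded that of WT on 12 of the 16 probe sets (median SD 0.18 with n = 3, against 0.12 with n = 4). This was not particular to the members. Over all probe sets, pairs of KLF15-null arrays correlated at 0.986 to 0.993 and pairs of WT arrays at 0.995 to 0.997.

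A wider list of 83 other genes of the pathway was read for context, 63 of them on the array and 55 tested, each on its brightest tested probe set. In KLF15-null hearts 21 of the 55 fell (38.2%), 9 rose (16.4%) and 25 missed the threshold, beside 19.6% lower and 27.4% higher among all 8404 genes tested. The counts by role given below are of few genes each and are to be read beside these shares. The median difference was -0.11, against 0.025 for all genes. After median centring 16 were lower and 11 higher. Probe sets mattered here too: of 23 genes with 2 or more tested probe sets 5 had a higher and a lower one, beside 21.0% of such genes on the array. These were Lamtor5, Sesn1, Prkag1, Stk11 and Eif4ebp2.

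Among growth factors and adaptors, 4 of 9 tested genes were lower and 5 were not called. Igf2, a growth factor that acts through the IGF-1 receptor, had a mean log2 signal of 6.93 in KLF15-null and 7.90 in WT hearts (difference -0.97, adjusted p = 0.000167). Igf1, the growth hormone-dependent ligand, differed by 0.15, not past the threshold. Irs2, the second widely expressed IRS adaptor, fell by 0.49, Grb14, an adaptor that inhibits the insulin receptor, by 0.59, and Shc1, which leads to the Ras branch, by 0.47 (adjusted p = 0.00903, 0.00537 and 0.00326). Gab1, a docking protein for PI3-kinase, differed by 0.16 on its brightest probe set, while its other 2 tested ones were called lower. Of the kinase genes, Pik3ca, the catalytic p110α partner of Pik3r1, fell by 0.48 (adjusted p = 0.00398). Its second tested probe set differed by -0.12, not past the threshold. Pdpk1, the kinase that activates AKT, stood at 8.68 in both groups (difference 0.0059).

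The negative regulators went both ways, 2 lower and 1 higher of 5. Ptpn1, the phosphatase PTP1B that switches the insulin receptor off, had means of 9.46 in KLF15-null and 8.53 in WT hearts (difference 0.93, adjusted p = 0.000763), with a second probe set at -0.13 that was not called. Inppl1, the lipid phosphatase SHIP2, and Phlpp1, a phosphatase that acts on AKT, fell by 0.73 and 0.41 (adjusted p = 0.00368 and 0.0179). The call of Phlpp1 was lost without WT array 2 (adjusted p = 0.0518) or KLF15-null array 3 (adjusted p = 0.0690). Trib1, a pseudokinase, differed by -0.06 and was not called.

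Among substrates of AKT, 2 of 6 were higher and 1 lower. Gsk3a and Gsk3b, the paired glycogen synthase kinases, went opposite ways, with Gsk3a higher by 0.48 and Gsk3b lower by 0.53 (adjusted p = 0.00527 and 0.00144). After quantile and cyclic loess normalization Gsk3a missed the threshold, at 0.21 and 0.26 (adjusted p = 0.157 and 0.115). Foxo3, a transcription factor that AKT keeps out of the nucleus, rose by 0.70 (adjusted p = 0.00846), but its second tested probe set stood at -0.26 and the mean of both at 0.22 was not called (adjusted p = 0.233). Bad, a cell death protein, differed by 0.30 (adjusted p = 0.0778), and was called without KLF15-null array 2 (0.38, adjusted p = 0.0326).

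Around the mTOR complexes, Deptor, an inhibitory subunit, was lower on both tested probe sets, with differences of -0.45 and -1.49 (adjusted p = 0.00709 for the first, the brighter). On the dimmer, 1451348_at, the KLF15-null values of 5.63, 5.54 and 4.96 all lay below the filter level. That probe set passed the filter through its WT signal and is not counted as separate support for the fall. Mapkap1, a subunit of mTOR complex 2, varied widely among KLF15-null hearts (SD 0.74, n = 3) and differed by -0.55 (adjusted p = 0.134). Rheb, the GTPase that the TSC complex restrains, was called higher by 0.31 (adjusted p = 0.0349). That call and its direction depended on the processing: Rheb stood at -0.09 after quantile normalization and at 0.01 after cyclic loess normalization. It was also lost without any single array other than WT array 3 or KLF15-null array 2, with adjusted p up to 0.0947.

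In the branch that brings amino acid signals to mTOR complex 1, 4 of 14 genes were lower and 2 higher, beside 19.6% and 27.4% of all genes tested. Counted as lower is Lamtor5, at -0.45 on its brightest probe set, though its other one was called higher at 1.58. Sesn2, also counted, differed by -0.24 and was not called by limma without the filter (adjusted p = 0.0587). Rraga, a Rag GTPase that carries the complex to the lysosome, had means of 6.17 in KLF15-null and 7.43 in WT hearts (difference -1.26, adjusted p = 0.000123). The arginine sensor homologue Castor2 fell by 0.44 (adjusted p = 0.00627). Lamtor1 and Lamtor3, which anchor the Rag GTPases to the lysosome, rose by 1.03 and 0.59 (adjusted p = 9.91e-05 and 0.00201), and by 0.62 and 0.29 after quantile normalization. For Lamtor1 an _x_at probe set gave 1.05 and the plain _at one 0.28, not called. Sesn1, a leucine-sensing inhibitor, had tested probe sets at -0.30 (not called, adjusted p = 0.0891), 0.47 (higher) and -1.80 (lower), so its direction cannot be given. The brightest of these was called lower without WT array 1 (-0.39, adjusted p = 0.0351).

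Of 5 energy and stress inputs 3 were lower and 2 were not called. Stk11, the LKB1 kinase upstream of AMPK, fell by 1.15 (adjusted p = 0.00039), while a dimmer probe set was called higher at 0.32. Ddit4, the stress and glucocorticoid-induced REDD1 that restrains mTOR complex 1 through the TSC complex, had 9.60, 8.20 and 8.17 on the KLF15-null arrays and 9.81, 9.59, 10.39 and 9.40 on the WT arrays. KLF15-null array 1 lay within the WT range, and the difference of -1.14 (SE 0.35, adjusted p = 0.0226) missed the threshold without WT array 1 or 3 or KLF15-null array 2 or 3, with adjusted p from 0.0506 to 0.106. Prkag1, a regulatory AMPK subunit, was called lower by 0.28 (adjusted p = 0.0395), but an _x_at probe set of it was 0.91 higher and the mean of its probe sets 0.31 higher, and the fall was not called without any single array other than KLF15-null array 1 (adjusted p up to 0.102). Prkab1, another AMPK subunit, differed by 0.33 (adjusted p = 0.0638) on its brighter and by -1.24 on its dimmer probe set, and the brighter was called without WT array 3 (adjusted p = 0.0362) or KLF15-null array 1 (adjusted p = 0.0273).

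Of the 9 tested targets of mTOR complex 1, 5 were lower and 3 higher. Rps6, the ribosomal protein S6 that S6 kinases phosphorylate, rose by 1.30, at 8.52 in KLF15-null and 7.22 in WT hearts (adjusted p = 2.20e-05). Rps6kb2, one of the S6 kinases, fell by 0.79 (adjusted p = 0.000199). Ulk1, the kinase that starts autophagy, fell by 0.86 and 1.15 on its 2 probe sets (adjusted p = 0.000684 for the brighter). Eif4e, the cap-binding factor that 4E-BP1 blocks, fell by 1.16 on its brightest probe set (adjusted p = 0.00069), whereas its other 2 stood at 0.21 and 0.28, not called, and the mean of all 3 at -0.22 was not called either (adjusted p = 0.0935). Eif4b, a helper of translation initiation, differed by -0.16 on its brightest probe set (adjusted p = 0.321) and was lower on another.

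**Figure D3:**
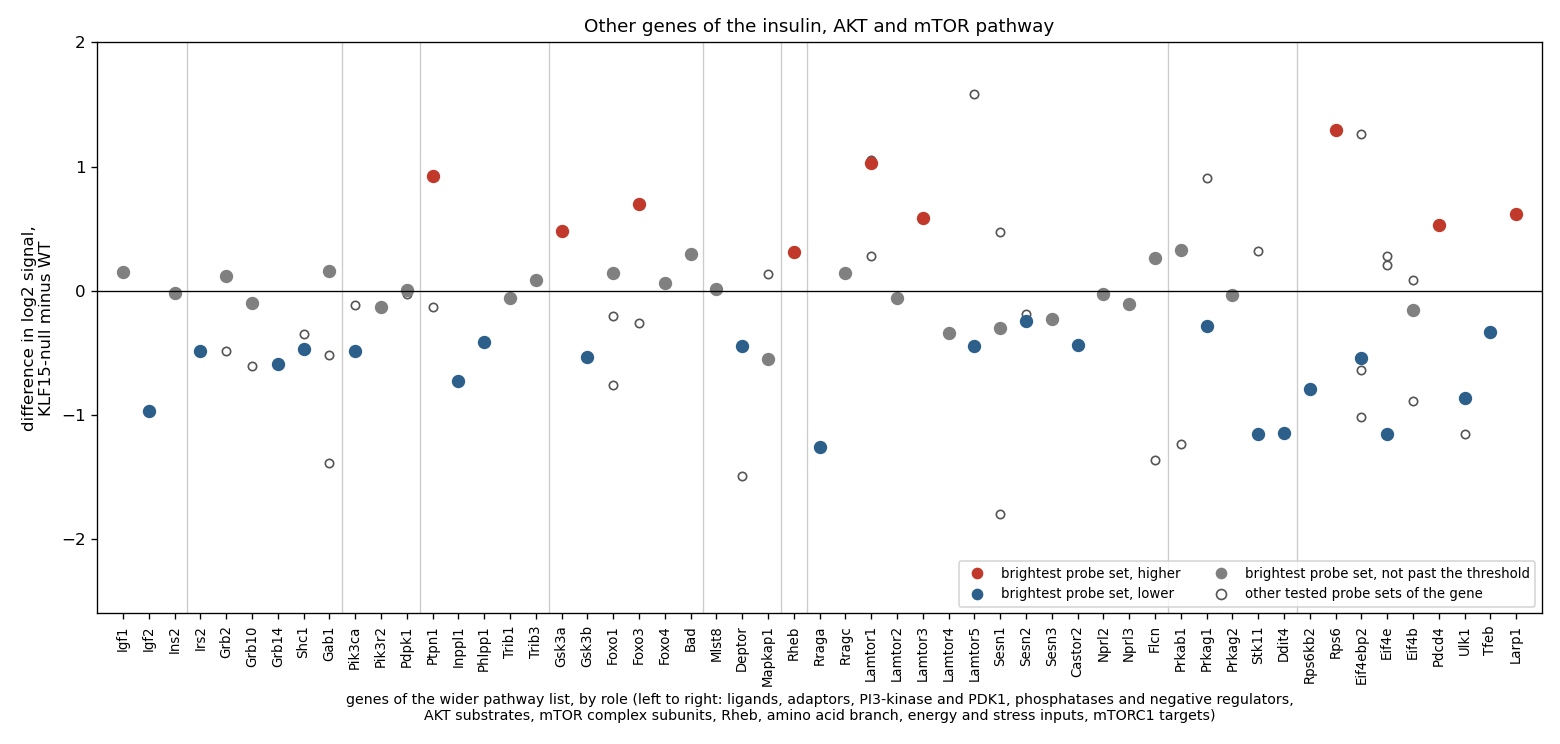
Difference in log2 signal between KLF15-null and WT hearts (vertical axis) for the 55 tested genes of the wider list, ordered by role, with the brightest probe set of each gene filled and its other tested probe sets open. Of the filled points 21 are blue (lower), 9 red (higher) and 25 grey, and open points on the far side of 0 mark genes such as Sesn1, Stk11 and Prkag1 whose probe sets disagree.

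Since whole hearts were taken, fewer cells of a type and less RNA per cell cannot be told apart. Of 5 macrophage markers 3 were higher and 2 not called, with summed linear signals of 3677 to 5341 on the KLF15-null arrays and 1901 to 2989 on the WT arrays. Of 3 tested neutrophil markers 2 were higher, with sums of 513 to 666 in KLF15-null and 166 to 283 in WT hearts, and of 3 tested lymphocyte markers 1 was higher, with sums over the 4 on the array of 469 to 646 in KLF15-null and 318 to 369 in WT hearts. The higher one was Ptprc, which codes for CD45, carried by white blood cells in general (difference 1.72, adjusted p = 2.34e-05), while Cd3e of T cells and Cd79a of B cells differed by -0.16 and 0.23 with overlapping groups, not called. Endothelial markers had 2 of 5 lower (1084 to 1656 in KLF15-null and 1497 to 1934 in WT hearts) and fibroblast markers 1 higher and 1 lower of 5 (3988 to 4654 in KLF15-null and 4547 to 8205 in WT hearts). No adipocyte marker reached the filter level. Among all 8404 genes tested 27.4% were called higher and 19.6% lower, and the marker lists are too short for their counts to be set apart from these shares. The part of these cell types in the differences above was not tested.

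**Figure D4:**
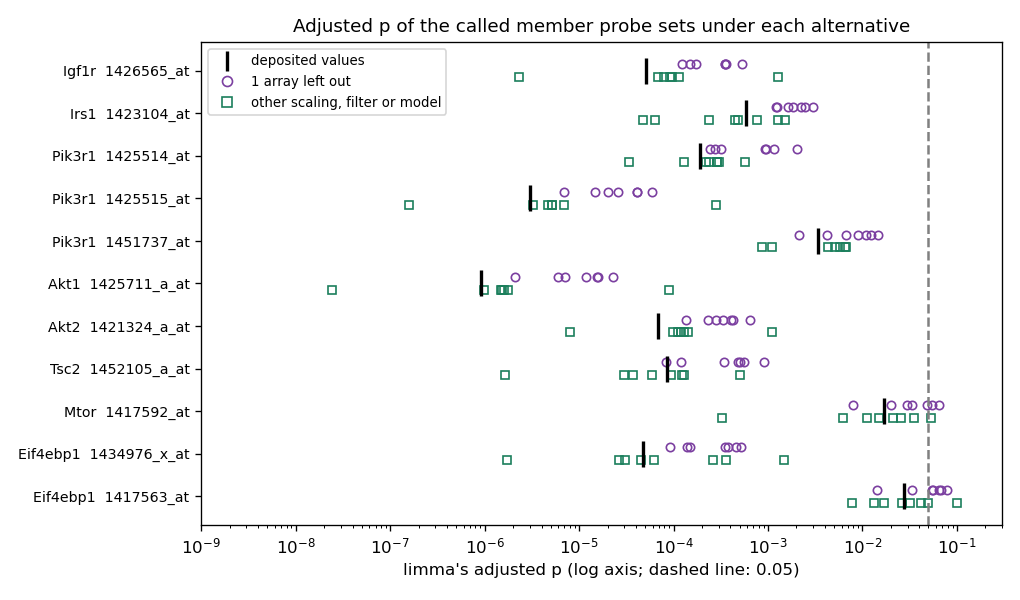
Adjusted p from limma (horizontal log axis) of the 11 called member probe sets on the deposited values (black bar), with 1 array left out (purple circles) and under other scaling, filters or models (green squares), with 0.05 as the dashed line. The 8 lower probe sets and 1434976_x_at of Eif4ebp1 stay left of the line wherever they were tested, while Mtor 1417592_at and Eif4ebp1 1417563_at cross it.

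The falls of the 8 lower member probe sets held in direction and call without any 1 array. Leaving out arrays gave -1.02 to -0.83 for Irs1, -1.62 to -1.29 for Tsc2, -0.84 to -0.76 for Igf1r, -2.74 to -2.54 for Akt1 1425711_a_at and -0.97 to -0.86 for Akt2 1421324_a_at. For Pik3r1 the ranges were -1.67 to -1.36, -2.25 to -2.04 and -0.90 to -0.63 in the order above. With single arrays left out, the rise on Eif4ebp1 1434976_x_at was between 0.95 and 1.03.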

How the data were processed

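RNA of flash-frozen hearts was extracted with Trizol and amplified by the one-cycle 3' protocol of Affymetrix, per the labels' protocols. The authors deposited values that lie between 3.20 and 14.28 and were therefore read as log2 signals, 1 for each probe set and array. Per the submitters' processing notes GCOS was used. How signals were summarized and scaled was, in the sources used here, not given, and scanner files were not used.

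Genes were named through the platform annotation, in which 20380 of 22626 probe sets have 1 symbol. The KLF15-null arrays (n = 3) were set against the WT arrays (n = 4) on the deposited values with limma 3.58.1 in R 4.3.3, with no covariate, an intensity trend and two-sided p-values adjusted by Benjamini-Hochberg over 13576 tested probe sets. Every adjusted p comes from limma unless an exact permutation test is named. Nothing says that arrays came from separate litters or extractions, so p-values measure the spread between these arrays, whose number limits the precision. Probe sets of 1 member were compared in pairs by the difference of their differences, on the deposited scaling alone. The procedure was tested on simulated data.

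Members, lists and tests were chosen with earlier results of these data known. Named were Klf15, every member probe set and, from each role of the wider list, up to 4 called genes with the smallest p and the brightest gene not called. Promoter windows came from RefSeq. Results were recomputed unfiltered, with a filter at percentile 60, after quantile, cyclic loess or median scaling, without the trend, with array weights, with a replicate block, leaving out each array, with a gene's probe sets averaged, and with gene-specific probe sets preferred.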

Additional observations from a re-analysis of the deposited data

Results flagged for a closer look

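In 54 sets of 4 WT values tested for a value far from the others, 3 had one, where chance flags about 1 in 20. On the Igf1r probe set 1452108_at, which lay under the filter, WT array 2 stood at 5.42, below the next value of 5.58, a gap of 0.911 of the group's range. For Grb14 WT array 3 stood at 10.28, above the next of 9.88 (gap 0.846 of the range). For Pdpk1 WT array 3 stood at 8.73, while the other 3 WT arrays shared the value 8.66 (gap 1 of the range).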

How the results depend on the processing

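The count of lower member probe sets was 8 under every alternative but the filter at the 60th percentile, where it was 3, since 5 of the 8 were then too dim to be tested. The count of higher ones was 3, except 1 with the replicate block and 1 to 3 with single arrays left out. With the block, which leaves WT array 4 without a partner, Mtor 1417592_at (adjusted p = 0.0535) and Eif4ebp1 1417563_at (adjusted p = 0.101) lost their calls, as did Rheb and Prkag1 (adjusted p = 0.135 and 0.120), and no other named gene changed its call. Arrays numbered alike in both genotypes had deviations that correlated at -0.11, 0.0012 and 0.19, and the numbers were treated as names, not pairs. The wider list had 16 to 24 genes lower and 7 to 13 higher over all alternatives, and Klf15 stood between -2.64 and -2.45.

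Rheb and Prkag1 apart, the differences that changed sign were not called on the deposited values. With median centring Akt1 1416657_at stood at 0.084, Akt2 1424480_s_at at 0.023, Mtor 1436267_a_at at 0.046 and Trib1 at 0.034. With array weights Akt1 1416657_at stood at 0.085 and Akt2 1424480_s_at at 0.0085. After quantile normalization Mtor 1436267_a_at stood at 0.046, Eif4ebp1 1417562_at at -0.23, Gab1 at -0.020, Pdpk1 at -0.064, Trib1 at 0.011 and Rheb at -0.092. After cyclic loess normalization the values were 0.0014 for Mtor 1436267_a_at, -0.17 for Eif4ebp1 1417562_at, -0.013 for Gab1 and -0.074 for Pdpk1. With single arrays left out Akt1 1416657_at ranged from -0.14 to 0.16, Akt2 1424480_s_at from -0.12 to 0.0010, Eif4ebp1 1417562_at from -0.093 to 0.26, Pdpk1 from -0.017 to 0.023 and Trib1 from -0.094 to 0.0018. Averaging the probe sets of each gene gave -0.58 for Gab1 (adjusted p = 0.00308), -0.45 for Prkab1 (adjusted p = 0.000908), 0.31 for Prkag1 (adjusted p = 0.0210) and -0.012 for Pdpk1. It also moved values that stayed called by over 1.5 times, to -0.30 for Pik3ca, 0.40 for Ptpn1, -0.97 for Deptor and -0.42 for Stk11. In the 3 cases with an adjusted p the sign follows from averaging probe sets that differ. For the rest the cause was not tested. Signals near the filter level limit what can be seen of Insr and of the lowest KLF15-null values of Akt1 1425711_a_at and Pik3r1 1425515_at.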
